A study of Mus musculus with 5464 samples.

Results

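The comparison of BTBRob/ob with BTBRLean at 6 weeks, over endothelial cells (EC) of all renal vessel types, took in 1733 of the 5464 cells of the series. Its members were chosen by genotype and age alone: all cells of each sorted plate were summed, giving 3 plates of BTBRob/ob mice (675 cells) and 4 plates of BTBRLean mice (1058 cells). Both groups were 6-week-old mice whose kidneys were freed of papilla and dissociated, and live CD31-positive cells were sorted singly into wells and sequenced by SmartSeq2, which amplifies full-length cDNA without molecular identifiers. BTBRob/ob mice (genotype label Obese, disease label diabetic nephropathy) carry the leptin-deficient Lep ob allele on both chromosomes, and BTBRLean mice (genotype label Lean, disease label control) are littermates with 1 or no copy of it. The study's methods give female BTBR mice, whereas the strain label reads C57BL/6. The labels name no treatment. The study's methods name 3 mice per group but 2 for BTBRLean at 6 weeks, and the labels tie no plate to a mouse. Each genotype was therefore 1 sample, no test between genotypes was possible, and the plates, each of 1 genotype and of mice not stated, were taken as technical units. Plate and genotype cannot be told apart.

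Leptin is the satiety hormone of fat cells, and mice without it overeat and become obese, insulin resistant and, on the BTBR background, severely diabetic with early kidney disease. Renal endothelium is divided between glomerular capillaries, which filter plasma, arterioles and vasa recta, which set flow, and peritubular capillaries, which take up what the tubules return. Endothelial cells sense glucose, fatty acids, insulin and shear, and they adjust chaperones, antioxidants, adhesion molecules, anticoagulants and vasoactive receptors in response.

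The defining endothelial markers were present throughout. Pecam1, which encodes CD31, had 1064, 1291, 1242 and 1149 counts per 500000 on BTBRLean plates 056s, 057s, 058s and 060s, and 1307, 1245 and 1212 on BTBRob/ob plates 062s, 066s and 067s, and plate values follow this order throughout. The 14 pan-endothelial genes summed to 8198 to 9245 on BTBRLean and 9301 to 10242 on BTBRob/ob plates. Summed markers of other cells were low, with 7.72 to 35.4 for the 10 epithelial genes, at most 11.6 for the 7 leukocyte genes, at most 29.3 for the 6 mural genes and at most 6.96 for the 5 erythrocyte genes, and each of these genes had counts on at least 1 plate. The 5 podocyte genes summed to 265 to 329 on BTBRLean and 348 to 421 on BTBRob/ob plates, without overlap. Podxl, which endothelium also expresses, made up most of this with 281, 218, 278 and 287 against 309, 315 and 352, while the nephrin gene Nphs1 had means of 0.0419 on BTBRLean and 0.0223 on BTBRob/ob plates. Their part in the results was not tested. Xist was detected on all 7 plates (135 to 225) and the Y-linked Ddx3y was at or near 0 on all of them (at most 0.0861).

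The plates fell into 2 sets that cut across genotype. Cells had a median of 6216 to 6880 detected genes on 1 BTBRLean (056s) and 2 BTBRob/ob plates (066s and 067s), but 3343 to 3636 on 3 BTBRLean plates (057s, 058s and 060s) and 1 BTBRob/ob plate (062s). Total counts per plate were 40645501 to 98778722 and median counts per cell 259959 to 363167, and thinning every cell to 50000 counts left 3242.5 to 3590 genes in the first set and 1976 to 2383 in the second. A gate on arteriolar and vasa recta markers held 53.7 to 64.3% of the cells in the first set and 17.0 to 28.9% in the second, but it counts the markers found in a cell and so is tied to genes per cell. The summed level of its 9 markers did not follow the sets, with 1200.4, 1900.5, 1435 and 1159 on the BTBRLean and 1198, 1502 and 1249 on the BTBRob/ob plates. The differences of the main genes and lists are therefore also given within the plates of many genes per cell (066s and 067s against 056s) and within those of few genes per cell (062s against the other 3). The part of the plate sets in a difference over all plates was not tested, and because plates were summed, fewer cells of a type and less RNA per cell cannot be told apart.

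**Figure D1:**
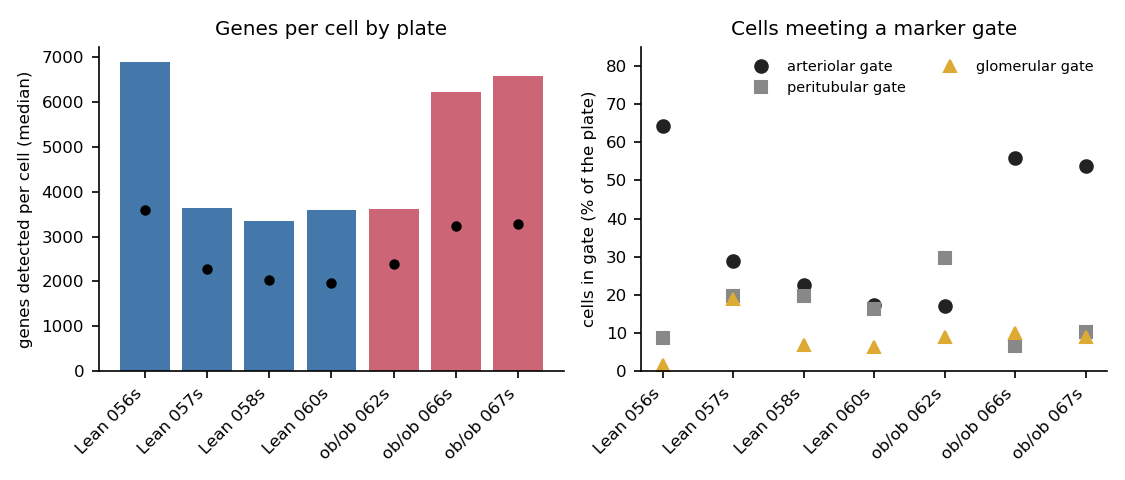
Left, median number of genes detected per cell on each 6-week plate (bars; blue BTBRLean, red BTBRob/ob) and after thinning each cell to 50000 counts (black points). Right, percentage of each plate's cells in the arteriolar, peritubular and glomerular marker gates. Plates 056s, 066s and 067s stand above the other 4 plates in genes per cell and in arteriolar-gated cells.

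Few genes differed by 2-fold or more with all plates apart. Levels are counts per 500000 counts of a plate, differences are means of log2(level + 1) over BTBRob/ob plates minus BTBRLean plates, and 9872 genes with a mean level of at least 5 were compared. A gene was called where this difference was at least 1 in size and the plates of the 2 groups did not overlap. By this rule 61 genes (0.618%) were higher and 28 (0.284%) lower in BTBRob/ob. The plates did not overlap, at any size of difference, for 441 genes (4.47%) that were higher and 334 (3.38%) that were lower. The median difference of all genes was 0.03. Many calls were of weakly expressed genes: 36 of the 61 and 13 of the 28 had a mean level under 10, and 1 of the 2375 genes with a mean of 50 or more was called, the chaperone gene Hsph1. With 1 plate left out, the counts of calls were larger, most of all without 062s, the 1 BTBRob/ob plate of few genes per cell. The part of plate number and of plate set in this rise was not tested. Without BTBRob/ob plate 062s 211 genes were called higher and 81 lower, without plate 066s it was 94 and 45, and without plate 067s 97 and 65. Leaving out BTBRLean plate 056s gave 98 and 50, plate 057s 85 and 56, plate 058s 88 and 41, and plate 060s 92 and 43, and the counts of genes with plates apart ran from 620 to 1139 higher and from 482 to 777 lower. With differences taken within both sets of plates, 75 genes were called higher and 45 lower, of which 46 and 18 were among the 61 and 28.

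Cytosolic chaperones and their transcriptional activator were lower in BTBRob/ob. All 14 heat shock genes examined had negative differences (median -0.52), and for 8 of them every BTBRob/ob plate was below every BTBRLean plate, against 3.38% of all genes. None was higher without overlap. The 14 genes summed to 2798, 3515, 3756 and 3244 on the BTBRLean plates and 2249, 2212 and 2189.8 on the BTBRob/ob plates, so that the highest BTBRob/ob plate was below the lowest BTBRLean plate.

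Hsph1 encodes the HSP110 nucleotide exchange factor that works with HSP70. It had 52.2, 80.9, 135 and 121 on the BTBRLean plates and 39.2, 38.6 and 38.6 on the BTBRob/ob plates (97.3 ± 37.8, SD over 4 plates, against 38.8 ± 0.327, SD over 3 plates). The difference of -1.21 was the 1 call in the list, and within the sets it was -0.43 on plates of many and -1.46 on plates of few genes per cell. Hspa1a, the stress-inducible HSP70, had 280.1, 493, 558 and 377 against 242, 254 and 249. The 3 BTBRob/ob plates lay close together below BTBRLean plate 056s, the lowest of the 4, and the difference was -0.73 over all plates but -0.15 within plates of many genes per cell.

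Hsp90ab1, the constitutive HSP90, had 1021, 1212, 1161 and 1064 against 793, 741 and 749, a difference of -0.55 with -0.46 and -0.53 within the sets. The inducible Hsp90aa1 had 217, 270.2, 334 and 249.6 against 148, 176 and 157 (difference -0.72). The small heat shock protein gene Hspb1 had 290.2, 290.0, 278 and 217 against 186, 179 and 148 (difference -0.65), and the constitutive HSC70 gene Hspa8 had 239, 294, 313 and 295 against 233, 198 and 197 (difference -0.44). Dnaja1, an HSP40 co-chaperone, differed by -0.38. Hsf1, the master activator of heat shock genes, had 77.7, 85.7, 75.4 and 76.3 against 47.0, 51.6 and 70.7 (difference -0.49), with BTBRob/ob plate 067s just under the BTBRLean range. Stip1, the HSP70-HSP90 adaptor, is not in the list and was chosen after its values were seen, with 86.5, 98.4, 124 and 77.3 against 41.8, 65.8 and 57.7 (difference -0.80). Within both sets of plates 12 of the 14 genes were lower, against 26.1% of all genes, which for the 8 genes with plates apart follows from that choice, and the list's median was -0.21 on plates of many and -0.59 on plates of few genes per cell. Hspa1a and Hspa1b are near-identical copies whose reads can be shared, so their split is uncertain.

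**Figure D2:**
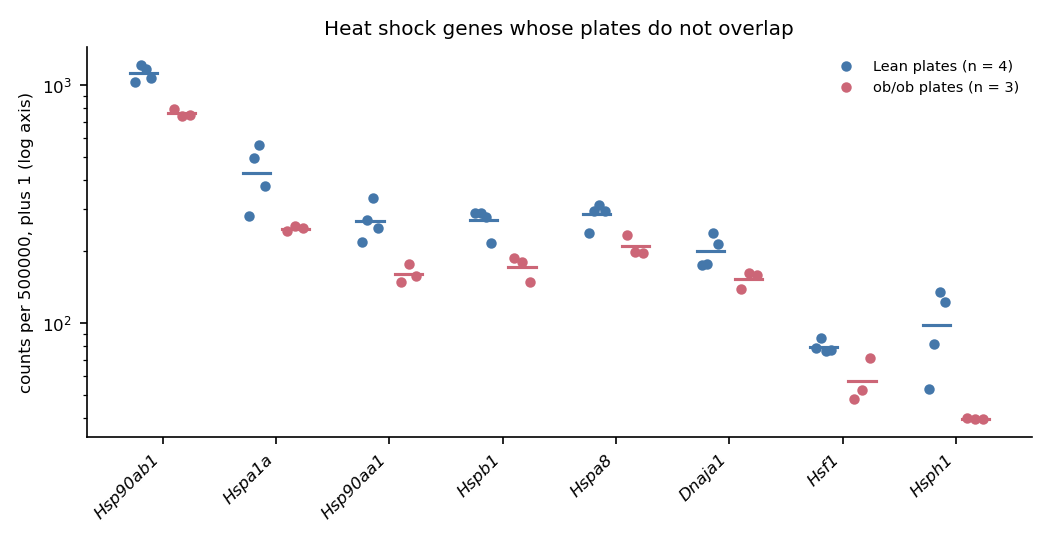
Levels of the 8 heat shock genes whose plates do not overlap, as counts per 500000 plus 1 on a log axis. Blue points are the 4 BTBRLean plates and red points the 3 BTBRob/ob plates, with a line at each mean, and each red group lies below its blue group.

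Promoters of the lower heat shock genes are shown because heat shock factors bind repeats of a short element, searched here on both strands as GAANNTTC or TTCNNGAA, a motif added after the values were seen. RefSeq promoter sequences (GRCm38.p6, 250 bases before to 50 after the start site) were held for 10 of the 14 genes. Of these 8 had a match, against 17% of all 27025 genes with a promoter. Heat shock genes are known targets of these factors, so a high share follows from the choice of list. The 27025 genes are also not limited to those over the expression filter. Of the 8 genes with plates apart, 4 had a promoter and all 4 a match, and the other matches were in genes whose plates overlapped. Where a gene had several start sites, a match in any of them was counted. The promoters of Hsph1 (chr5:149636287-149636586, minus strand), Hspa1a (chr17:34972107-34972406, minus strand) and Hspb1 (chr5:135887669-135887968, plus strand) held 3, 1 and 2 matches, in capitals below.
Hsph1: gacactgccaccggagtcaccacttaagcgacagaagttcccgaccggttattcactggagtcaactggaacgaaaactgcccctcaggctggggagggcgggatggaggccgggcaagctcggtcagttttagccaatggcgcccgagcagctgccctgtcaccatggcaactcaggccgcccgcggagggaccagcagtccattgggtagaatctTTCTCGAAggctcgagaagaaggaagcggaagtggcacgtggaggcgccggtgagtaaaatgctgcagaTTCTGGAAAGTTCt
Hspa1a: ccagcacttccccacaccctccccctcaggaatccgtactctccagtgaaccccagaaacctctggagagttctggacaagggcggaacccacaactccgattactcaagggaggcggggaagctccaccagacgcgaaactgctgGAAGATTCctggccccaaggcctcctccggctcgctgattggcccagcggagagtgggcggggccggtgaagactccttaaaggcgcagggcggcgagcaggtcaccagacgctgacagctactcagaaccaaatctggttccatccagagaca
Hspb1: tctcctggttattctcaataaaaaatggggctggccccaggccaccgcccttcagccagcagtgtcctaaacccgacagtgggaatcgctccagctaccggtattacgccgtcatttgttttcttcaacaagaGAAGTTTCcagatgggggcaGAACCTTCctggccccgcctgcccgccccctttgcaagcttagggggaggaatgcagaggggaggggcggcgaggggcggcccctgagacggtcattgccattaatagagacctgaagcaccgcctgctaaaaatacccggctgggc
Among the 28 genes called lower, 21 had a promoter and 6 (28.6%) held the motif, and among the 61 called higher it was 6 of 44 (13.6%). A match is a description of the letters and not evidence of binding.

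Zbtb16, which encodes the zinc finger transcription factor PLZF and is a known glucocorticoid target, had the third largest difference among the genes called higher. Its levels were 0.830, 8.30, 12.9 and 8.11 on the BTBRLean plates and 34.8, 29.7 and 30.4 on the BTBRob/ob plates, a difference of 2.26 with 4.08 and 1.76 within the 2 sets. Reads were found in 8.03% of BTBRLean cells (single plates 5.63 to 10.3%) and 42.8% of BTBRob/ob cells (26.1 to 58.3%), and the ranges did not overlap although BTBRLean plate 056s had the most genes per cell. Zbtb16 lies at chr9:48654297-48836222 (GRCm38, GENCODE M21, minus strand).

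Other glucocorticoid targets were split between higher and lower. Of 14 members that passed the filter, Zbtb16 and the sulfotransferase gene Sult1a1 were higher without overlap, Gadd45g and the NF-kappaB inhibitor gene Nfkbia were lower, and the median was -0.02. Each direction held 14.3% of the members, against 4.47% higher and 3.38% lower of all genes. Sult1a1 had 141, 115, 110.3 and 134 against 243, 176 and 165 (difference 0.62). Fkbp5, the chaperone that damps the glucocorticoid receptor, had 7.15, 1.75, 13.6 and 14.3 against 11.0, 31.7 and 16.4, so BTBRob/ob plate 062s lay within the BTBRLean range and the difference of 1.17 was not a call. Tsc22d3, which encodes the glucocorticoid-induced leucine zipper, differed by -0.10.

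Among 13 clock genes over the filter, Per3 was called higher and Nr1d1 was higher without overlap, and none was lower without overlap. The 2 higher genes were 15.4% of the list, against 4.47% of all genes. Per3, a period gene of the repressor limb, had 4.25, 2.85, 3.70 and 8.66 against 13.9, 9.94 and 11.2, a difference of 1.19 that was 1.14 and 1.41 within the sets. Nr1d1, the nuclear receptor REV-ERB alpha, had 139, 143, 99.5 and 122 against 296, 146 and 143, and plate 062s carried most of its difference (0.06 within plates of many genes per cell and 1.30 within the others). The activators Arntl and Clock had differences of -0.35 and -0.52 with overlapping plates. Over the 13 genes the directions were split, with 7 positive and 6 negative differences, a median of 0.20 and a lowest difference of -0.90. The Per3 promoter (chr4:151044616-151044915, minus strand) is shown because it holds the D-box, the element of the clock-controlled PAR bZIP factors, searched as TTATGNAA on both strands. It occurred 2 times there, in capitals, and in 3.99% of all genes with a promoter.
Per3: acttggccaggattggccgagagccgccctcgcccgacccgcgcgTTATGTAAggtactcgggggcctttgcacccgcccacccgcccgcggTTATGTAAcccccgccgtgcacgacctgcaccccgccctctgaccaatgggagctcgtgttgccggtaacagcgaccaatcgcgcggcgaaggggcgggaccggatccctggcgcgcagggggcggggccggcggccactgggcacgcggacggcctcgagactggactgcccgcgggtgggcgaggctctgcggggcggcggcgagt
No CACGTG (E-box) was found in that window. In the genes called higher with a promoter, E-box matches stood in 5 of 44 (11.4%) and TGACGTCA matches in 2 (4.55%). In those called lower, they stood in 5 of 21 (23.8%) and 1 (4.76%). Among all 27025 genes with a promoter the shares were 8.09% and 2.03%. That set is not limited to genes over the expression filter, as the called genes are, so the shares are not of like sets. TTATGNAA was found for 1 of the 44, which was Per3, and for 0 of the 21.

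Of 14 coagulation genes over the filter, 4 were higher (28.6%) and 1 lower (7.14%) without overlap, and of 18 vascular tone genes 3 were higher (16.7%) and none lower, against 4.47% higher and 3.38% lower of all genes. Tfpi, the inhibitor of the tissue factor pathway, had 32.3, 24.8, 37.5 and 42.5 against 59.8, 55.0 and 61.6 (difference 0.79), and the 2 within-set values were 0.83 and 0.79. Thbd, which encodes the anticoagulant receptor thrombomodulin, had 472, 403, 349 and 341 against 506, 542 and 519 (difference 0.43). The thrombin receptor gene F2r differed by 0.38 and the ectonucleotidase gene Entpd1, which clears platelet-activating ADP, by 0.34. Plaur, the urokinase receptor gene, was lower, with 120.1, 148, 146 and 147 against 112, 105 and 106.

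Calcrl encodes the receptor shared by adrenomedullin and CGRP. Its levels were 175, 146, 177 and 122 against 209, 298 and 273, a difference of 0.74 with 0.70 and 0.51 within the sets. Its ligand gene Adm had 7.79, 11.1, 19.7 and 20.2 against 22.2, 20.6 and 26.7, where BTBRLean plate 060s came close to the lowest BTBRob/ob plate. The connexin gene Gja4 differed by 0.34. Nos3, endothelial nitric oxide synthase, and Edn1, endothelin-1, had differences of -0.01 and 0.60 with overlapping plates.

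Kdr, the main VEGF receptor gene, had 541, 692, 525 and 560.5 against 716, 765 and 877 (difference 0.44), whereas its homologue Flt1 overlapped with 532, 478, 560.1 and 479 against 516, 481 and 536. Esm1, which encodes endocan and marks VEGF-responsive tip cells, was lower, with 254, 331, 309 and 323 against 175, 159 and 138. Its difference of -0.95 was just short of the size needed for a call and was -0.78 and -0.87 within the sets. Kdr and Esm1 were the members of the 25 VEGF and angiogenesis genes over the filter with plates apart. Each was 4% of the list, against 4.47% higher and 3.38% lower of all genes. Eng, the endoglin co-receptor of BMP9 and TGF-beta, had 1510.3, 1697, 1276 and 1386 against 2095, 1724 and 1700.2 (difference 0.33). In the TGF-beta and BMP list 3 of 22 genes were higher without overlap (13.6%, against 4.47% of all genes), which were Eng, Bmp6 and Id2, and Smad5 was lower (4.55%, against 3.38%). Of 22 basement membrane and matrix genes, the laminin gene Lamb2 was the 1 with plates apart (164, 176, 154 and 144 against 213, 226 and 312). It was 4.55% of the list, near the 4.47% of all genes higher without overlap. The collagen IV genes Col4a1 and Col4a2 had differences of 0.26 and 0.52 with overlapping plates.

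**Figure D3:**
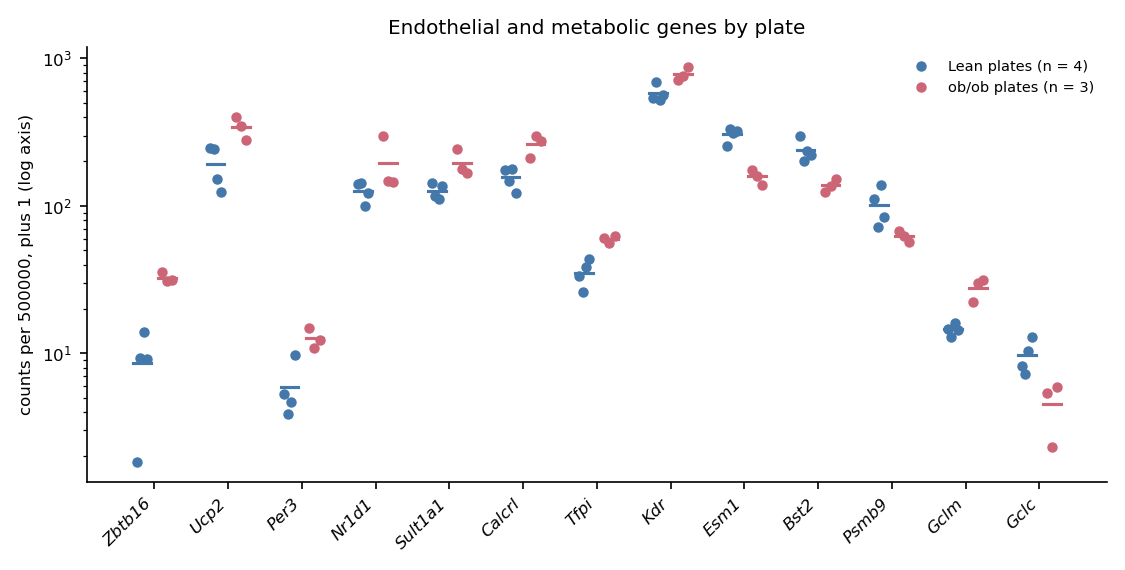
Levels of 13 genes on each plate, as counts per 500000 plus 1 on a log axis, with blue points for the 4 BTBRLean and red points for the 3 BTBRob/ob plates and a line at each mean. The BTBRob/ob plates lie above all BTBRLean plates for the first 8 genes and for Gclm, and below them for Esm1, Bst2, Psmb9 and Gclc.

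Abundant genes outside the lists were looked at after their values were seen. Slc6a6, the taurine transporter gene, had 454, 493, 468 and 497 against 813, 662 and 747 (difference 0.63), and Bgn, the proteoglycan biglycan, had 186, 183, 87.8 and 158 against 308, 279 and 201 (difference 0.81). The hypoxia-inducible factor gene Epas1 differed by 0.53, the venous ephrin receptor gene Ephb4 by 0.54 and the matrix peroxidase gene Pxdn by 0.88, and in all 3 the BTBRob/ob plates were above the BTBRLean plates. Clu, the extracellular chaperone clusterin, was lower (117, 106, 95.6 and 104 against 55.4, 68.6 and 49.8, difference -0.86).

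Ucp2 and Serinc3 were higher in BTBRob/ob without overlap. Ucp2, a mitochondrial carrier that lowers oxidant production, had 244, 242, 152 and 123 on the BTBRLean plates and 401, 345 and 278 on the BTBRob/ob plates. The difference was 0.88, with 0.34 within plates of many and 1.27 within plates of few genes per cell, and the 2 BTBRLean plates 056s and 057s stood above the other 2. Serinc3, which encodes a membrane serine incorporator, had 168, 199, 173 and 152 against 256, 231 and 239 (difference 0.49). The carboxylesterase gene Ces2e overlapped (158, 136, 135 and 157 against 144, 111 and 93.0).

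In the leptin signalling list all 8 genes over the filter overlapped (median -0.08). The leptin receptor gene Lepr had 11.9, 15.2, 16.0 and 11.9 against 14.6, 10.8 and 13.4, and Lep itself was not analysed here. The 18 insulin and IGF genes also overlapped without exception (median 0.02), among them the receptor genes Insr (-0.15) and Igf1r (0.16). Of 20 glucose uptake and glycolysis genes 2 were lower without overlap (10%, against 3.38% of all genes). These were the glycolytic activator gene Pfkfb3 (18.1, 31.9, 30.8 and 27.0 against 13.0, 14.5 and 13.3) and the glucose-sensitive arrestin gene Arrdc4 (60.0, 54.6, 49.6 and 61.0 against 44.3, 32.7 and 32.4). Txnip, a relative of Arrdc4 induced by glucose, overlapped with a difference of 0.25. Of 19 fatty acid handling genes Ucp2 was the 1 with plates apart, and of 16 cholesterol genes it was Mvk, mevalonate kinase (0.40). These were 5.26% and 6.25% of the lists, against 4.47% of all genes higher without overlap.

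Glutathione synthesis genes went in opposite directions. Gclc, the catalytic subunit of glutamate-cysteine ligase, was called lower (7.25, 6.27, 9.34 and 11.8 against 4.40, 1.30 and 4.86, difference -1.18), and Gclm, its modifier subunit, was higher without overlap (13.7, 11.8, 15.1 and 13.4 against 21.1, 28.9 and 30.4, difference 0.93). The mitochondrial superoxide dismutase gene Sod2 was lower (72.4, 58.2, 46.0 and 55.3 against 37.0, 37.0 and 38.4), and the other 15 antioxidant genes over the filter overlapped. In this list 5.56% were higher and 11.1% lower without overlap, against 4.47% and 3.38% of all genes.

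Most antigen presentation genes overlapped between the genotypes. The plates were apart for 1 of the 18 genes (5.56%, against 3.38% of all genes), the immunoproteasome gene Psmb9 (111, 71.2, 137 and 82.9 against 66.3, 61.3 and 56.3, difference -0.66). The list had a median difference of -0.63, and 15 of its genes had negative differences within both sets of plates, against 26.1% of all genes. BTBRLean plate 058s carried a summed level of 8069, against 3728 to 4550 on the other 3 BTBRLean plates and 3953, 3223 and 3262 on the BTBRob/ob plates, so that the sums overlapped. Of 29 interferon response genes (median -0.38), 2 were lower without overlap (6.90%, against 3.38% of all genes). These were the transcription factor gene Irf7 (194, 166, 201 and 179 against 129, 140.0 and 147) and Bst2, the virus-tethering protein tetherin (297, 201, 236 and 219 against 124, 134 and 151, difference -0.79). Bst2 kept a similar size within both sets (-1.05 and -0.81).

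Of 15 adhesion and chemokine genes Cxcl1 and Nfkbia were lower without overlap and Lbp, which encodes the lipopolysaccharide-binding protein, was higher (41.4, 24.9, 18.4 and 24.9 against 53.8, 48.1 and 46.6). Thus 13.3% were lower and 6.67% higher, against 3.38% and 4.47% of all genes. Cxcl1, a neutrophil chemokine, was the 1 call of the list, with 16.0, 24.0, 40.3 and 17.2 against 7.47, 15.3 and 9.46, although BTBRob/ob plate 066s and BTBRLean plate 056s lay side by side. Nfkbid, an atypical inhibitor of NF-kappaB, was called lower, with 9.99, 38.9, 11.8 and 25.6 against 6.86, 7.33 and 4.92 (difference -1.43). Icam1 and Vcam1, which hold leukocytes to the vessel wall, had differences of -0.31 and -0.42 with overlapping plates.

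Immediate early genes depended on the set of plates. Atf3, Ier3, Zfp36 and Klf6, 4 of 19 genes (21.1%, against 3.38% of all genes), were lower without overlap, and the list's median was -0.45 over all plates, -0.83 on plates of few genes per cell and 0.15 on plates of many. Atf3, a stress-induced repressor, had 247, 499, 417 and 334 against 202, 238 and 221, and its difference of -0.72 was -0.10 and -1.02 within the sets. Fos overlapped, with 791, 1666, 1245 and 1132 against 827, 924 and 863. The study cites proposals that high immediate early expression in vascular cells arises from stress and altered flow as tissue is dissociated. The part of dissociation in the differences of these genes, and of the heat shock genes, was not tested. Of 20 unfolded protein and integrated stress response genes, Ddit3, the CHOP transcription factor, and Asns, asparagine synthetase, were lower without overlap (-0.58 and -0.51), and the endoplasmic chaperone gene Hspa5 overlapped (-0.38). Ddit3 and Asns were 10% of the list, against 3.38% of all genes.

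The 78 OXPHOS subunit genes and 82 ribosomal protein genes had medians of -0.01 and -0.07 over all plates. The median of OXPHOS genes was -0.22 on plates of many and -0.21 on plates of few genes per cell, and 51 of the 78 had negative differences within both sets. For ribosomal protein genes the medians were -0.52 and -0.12, and 55 of the 82 had negative differences within both sets, against 26.1% of all genes. Ndufs8 and Uqcrc1 were lower without overlap among OXPHOS genes, and Rpl4, Rpl14 and Rps2 among ribosomal protein genes, with none higher in either list. These were 2.56% and 3.66% of the lists, near the 3.38% of all genes. Of 9 mitochondrially encoded genes over the filter, the complex I genes mt-Nd5 and mt-Nd6 were higher without overlap (0.31 and 0.46) and none was lower. They were 22.2% of the list, against 4.47% of all genes. Among 42 initiation factor genes 2 were higher and 2 lower, of which Eif3g had 136, 108, 107 and 93.0 against 92.1, 72.3 and 68.7. Each direction held 4.76% of the list, against 4.47% higher and 3.38% lower of all genes. The summed level of the ribosomal protein genes was 9287 on BTBRLean plate 056s and 5557 to 6744 on the other 6 plates. That of the OXPHOS genes was 6040 on plate 056s and 4315 to 4966 on the other 6 plates, with 4389 on BTBRob/ob plate 062s. Plates 056s and 062s each stand alone on 1 side of a within-set comparison.

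**Figure D4:**
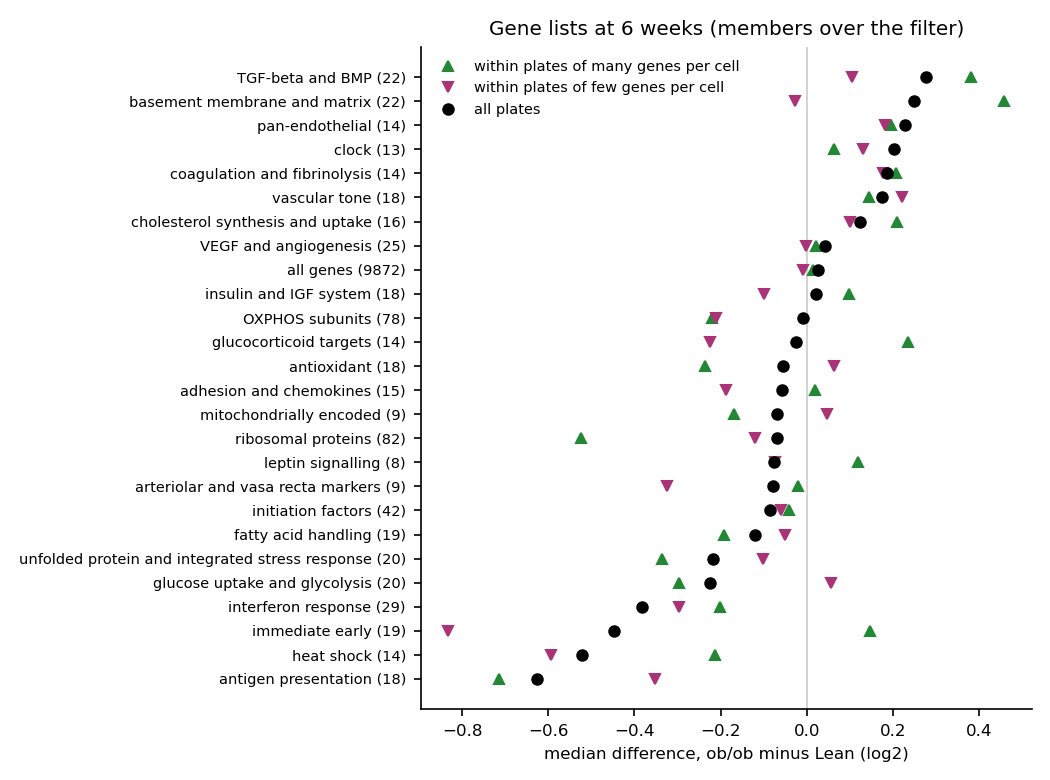
Median difference between genotypes (log2, BTBRob/ob minus BTBRLean) of each gene list with at least 8 genes over the filter, with that number in brackets. Black points use all plates, and the triangles use the plates of many or of few genes per cell alone. Heat shock, antigen presentation, interferon, OXPHOS and ribosomal protein genes are among those below 0 in all 3, and immediate early genes lie below 0 on plates of few and above 0 on plates of many genes per cell.

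The largest differences among calls were of weakly expressed genes. Mmrn1, a platelet and lymphatic endothelial adhesive protein, differed by 2.39 (6.48, 0, 0.0157 and 7.16 against 9.23, 16.9 and 16.5). Cells with at least 3 of 7 lymphatic markers, 3 of 1058 in BTBRLean and 5 of 675 in BTBRob/ob, held 95.8% and 96.0% of its counts, and without them its difference was 0.34 and it was not called, whereas 53 of the 61 genes and 27 of the 28 were still called. This gate is strict, since 33 further cells were 1 marker short of it. It does not measure how many lymphatic cells a group held. The study's clusters placed many more BTBRob/ob than BTBRLean cells at 6 weeks in lymphatic endothelium, and more BTBRob/ob cells than this gate held. Calls without the lymphatic cells of the study's clusters were not examined. Lyve1, a hyaluronan receptor of lymphatic endothelium, had 0.686, 0, 0.0315 and 0.769 against 7.05, 0 and 9.38, with reads in 1.13% of BTBRLean cells (single plates 0 to 2.41%) and 7.85% of BTBRob/ob cells (0 to 17.8%). The 7 lymphatic markers summed to 122, 99.7, 64.4 and 142 against 129, 118 and 179, which overlapped. Msr1, the class A scavenger receptor for modified lipoproteins, had 0.246, 0, 3.56 and 1.70 against 12.6, 12.7 and 4.69, and reads were found in 1.51% of BTBRLean and 15.9% of BTBRob/ob cells. Sost, which encodes the Wnt antagonist sclerostin, had 6.67, 6.77, 13.6 and 14.5 against 16.7, 35.9 and 69.0, and plate 062s was close to the upper end of the BTBRLean plates. Ak1, adenylate kinase, had 8.30, 7.39, 1.92 and 6.43 against 13.1, 31.5 and 32.2. The other 7 of the 12 largest differences, from 1.82 down to 1.54, were those of the DNA helicase gene Recql5, Gramd4, Cc2d1b, Lyplal1, the lysosomal mannosidase gene Manba, Sh3bp1 and Lhfp.

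At the other end, the lowest difference was that of Grwd1, a ribosome assembly factor, with 15.9, 11.5, 26.8 and 22.5 against 6.51, 3.56 and 8.02 (difference -1.51). Thumpd2 (-1.46), Mdn1 (-1.26), Rrp1b (-1.26) and Zfp593 (-1.24) were also among the 12 lowest. Tyms, thymidylate synthase, differed by -1.35 and the deubiquitinase gene Usp37 by -1.28. Gpn2, Erdr1, Vps13a and Amer1 had differences of -1.46, -1.36, -1.35 and -1.29. A further 18 genes higher and 10 lower without overlap fell short of the size needed for a call by at most 0.1.

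Marker gates grouped cells by the vessel markers found in each, a count that for the arteriolar gate is tied to genes per cell. They were built here, are not the study's clusters and do not hold 1 vessel type each, since arteriolar-gated cells had a median of 4 of 9 arteriolar but also 2 of 7 glomerular and 2 of 6 peritubular markers. Glomerular-gated cells were 73 of 1058 (6.90%, exact 95% interval 5.45 to 8.60) in BTBRLean and 62 of 675 (9.19%, 7.11 to 11.6) in BTBRob/ob, while single plates ran from 1.72 to 19.0% and from 8.83 to 10.0%. Peritubular-gated cells were 15.8% (13.6 to 18.1) and 17.6% (14.8 to 20.7). Arteriolar-gated cells were 33.6% (30.7 to 36.5) and 38.8% (35.1 to 42.6), with plates from 17.5 to 64.3% and from 17.0 to 56.0%. The intervals cover counting error only, and the plates of both genotypes overlapped in all 3 gates. Ascending vasa recta cells had no gate of their own. The study's clusters held a smaller share of these at 6 weeks in BTBRob/ob than in BTBRLean, and a larger share of lymphatic cells. The part of vessel type shares in the differences was not tested. A further 39.7% and 26.8% of cells met no gate. The arteriolar gate rested on 3 of 9 markers, with 210 cells at 3 markers and 224 cells 1 marker short of it.

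The arteriolar gate alone had at least 20 cells on every plate. Within it, 4 of the 14 heat shock genes were lower without overlap, against 2.77% of all genes, and the list's median was -0.47. Hsph1 differed by -1.37 and Hsp90ab1 by -0.51 there. Zbtb16 was higher without overlap (2.23), as 2.86% of all genes were, and Bst2 was lower (-0.86). Ucp2, Per3, Kdr and Esm1 overlapped in these cells, with differences of 0.74, 0.99, 0.93 and -0.37.

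The same rule at later ages gave other genes. At 11 weeks 32 genes (0.328%) were called higher and 47 (0.481%) lower, and at 20 weeks 77 (0.774%) and 163 (1.64%). Of the 61 genes called higher at 6 weeks, Lfng and Sost were called higher at 11 weeks (3.28% of the 61 and 6.25% of the 32) and 0 were called lower. Of the 28 called lower, Nfkbid and Tppp3 were called lower at 11 weeks (7.14% of the 28 and 4.26% of the 47) and 0 higher. At 20 weeks 0 of the 61 were called higher, 6 were called lower (Ak1, Lfng, Acad11, Sost, Arrdc3 and Capn1), and of the 28 Grwd1 was called higher and 0 lower. Xist was under 5 on 2 of 5 BTBRLean plates at 11 weeks and on both BTBRLean plates at 20 weeks, and at least 110.7 on every BTBRob/ob plate, with Ddx3y at or near 0 on all of them. Its part in the later differences was not tested.

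Named genes are given side by side in the same order of ages. Ucp2 differed by 0.88, 0.90 and -0.87 at 6, 11 and 20 weeks, and Serinc3 by 0.49, 1.17 and -0.90. Zbtb16 differed by 2.26, 1.02 and 0.02. The heat shock list had medians of -0.52, -0.26 and 0.51, and Hsph1 differences of -1.21, -0.06 and 1.07. Esm1 differed by -0.95, -0.79 and 1.05. At 20 weeks the plates of Ucp2, Serinc3, Hspa1a, Hspa8, Hsf1 and Esm1 were apart in the direction opposite to that at 6 weeks, and so were those of Mmrn1, Ak1, Sost, Grwd1, Per3, Clu, Stip1, Asns, Epas1, Podxl, Rpl4, Lfng, Acad11, Arrdc3 and Capn1. Some of these were chosen after their values were seen, and the share of all genes that did so was not examined.

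**Figure D5:**
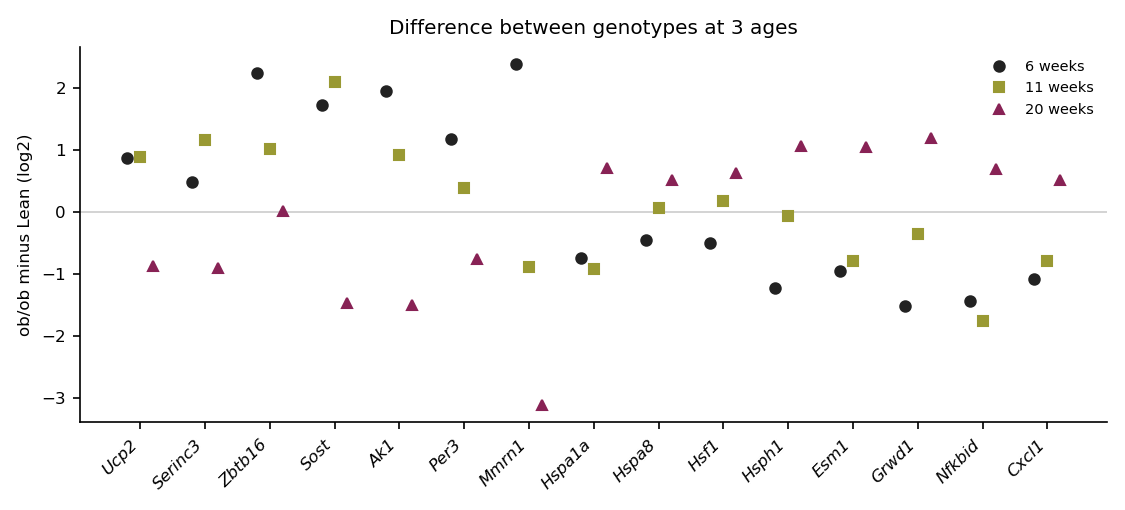
Difference between genotypes (log2, BTBRob/ob minus BTBRLean) of 15 genes at 6, 11 and 20 weeks. Of these genes, the 20-week point of all but Zbtb16 lies on the other side of 0 from the 6-week point.

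The surroundings of the mutated locus were looked at because a mutation bred into a strain can carry flanking sequence with it. Lep lies at chr6:29060220-29073877 (GRCm38, GENCODE M21). Within 20 Mb on either side 109 genes passed the filter, none was called, and 8 had plates apart (7.34%), against 7.85% of all genes with a position. Within 10 Mb 54 genes passed the filter and 5 had plates apart (9.26%, against 7.85% of all genes with a position). These 5 were Podxl, Snd1, Mest and Mtpn, which were higher, and Hilpda, which was lower. Mest, an imprinted hydrolase gene, had the largest difference of them, 0.71.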

How the data were processed

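Single endothelial cells sorted into 384-well plates were sequenced as single reads by SmartSeq2. The authors trimmed adapters, aligned reads to GRCm38 with TopHat 2.1.1, removed duplicates with SAMtools 0.1.18, counted reads per gene with featureCounts (Subread 1.4.6-p5) and removed cells under 50000 counts or with an epithelial signature. The deposited values are counts per gene and cell without normalization (5464 columns, all mapped to a labelled group, 29735 genes). The annotation release and strand setting are not given in the sources used here, so reads of overlapping or antisense genes (Tsix with Xist, for example) cannot be told apart. Versions are from the submitters' processing notes.

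Counts were summed per plate, scaled to 500000 and compared as log2(value + 1) for genes with a mean of the 2 group means of at least 5. Values after ± are SD over plates, a spread that may be technical or between mice. A gene was called at a difference of at least 1 with plates that do not overlap. No animal is named in the labels, so no model or p-value was used. A marker counted as on in a cell at 10 counts or more, and gates needed 4 of 7 glomerular, 3 of 9 arteriolar or 3 of 7 lymphatic markers, or Plvap with 1 of Igf1, Il33, Car8 and Ltf for the peritubular gate. Doublets were not called, and cells in more than 1 gate were set aside. Depth per plate was at least 40645501 counts. Reads carry no molecular identifiers, and neither counting error nor the sampling of cells was compared with the spread between plates. For weakly expressed genes few cells can hold most of the counts.

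Genes named are Lepr, Xist, Tsix and 4 Y-linked genes, Ucp2, Serinc3 and Ces2e, the 12 largest differences called in each direction and, per list, up to 4 called members and the first 2 as listed. Other members with plates apart, genes near Lep and those named as such were chosen after their values were seen. The members and the 36 gene lists were chosen with earlier results of these data known. Positions are from GENCODE M21, which held 1 position for 9448 of the 9872 genes, and promoters from RefSeq GRCm38.p6. The code was tested on simulated data. Python 3.11.15 with numpy 2.4.6, pandas 2.3.3 and scipy 1.17.1 was used, and for alternative scalings edgeR 4.0.16 (TMM) and DESeq2 1.42.0 (size factors) in R 4.3.3. Other alternatives were pseudocounts, filters, pooled counts, means over cells, leaving out shallow or lymphatic-gated cells or 1 plate, and, chosen after seeing the data, the 2 sets of plates by genes per cell.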

Additional observations from a re-analysis of the deposited data

Results flagged for a closer look

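In the 4 BTBRLean plates, 163 measures were examined for a plate whose gap to the nearest other plate exceeded 0.829 of the range, which chance gives for about 1 in 20 measures. It did so for 17, of which 7 were on plate 056s. Plate 056s had the most genes per cell (6880, gap 0.917 of the range), the most cells in several gates (14.1%, gap 0.95), the highest erythrocyte marker sum (6.96, gap 0.924), the lowest unfolded protein and integrated stress response sum (2264, gap 0.842), the highest Ndufs8 (105, gap 0.946) and Rps2 (149, gap 0.845) and the lowest Plaur (120.1, gap 0.928). Plate 057s had the highest cycling marker sum (25.9, gap 0.933), mural marker sum (16.4, gap 0.832) and Gramd4 level (7.28, gap 0.964) and the lowest Podxl (218, gap 0.877). Plate 058s had the highest Vcam1 (104, gap 0.856) and Mest (114, gap 0.856) and the lowest Epas1 (387, gap 0.865). Plate 060s had the most counts per cell (350948, gap 0.925), the 1 cell that met the lymphatic gate and no other (0.350%, gap 1 of the range) and the lowest Hspb1 (217, gap 0.832).

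The genotypes differed in opposite directions at 6 and 20 weeks, with plates apart at both ages, for 21 of the 118 genes examined, and the difference between ages was not tested. Part of the 118 genes were chosen after their values were seen, among them Lfng, Acad11, Arrdc3 and Capn1. The 21 is therefore no estimate of the share among all genes, which was not examined. Genes higher in BTBRob/ob at 6 weeks had 20-week differences of -0.87 for Ucp2, -0.90 for Serinc3, -3.11 for Mmrn1, -1.50 for Ak1, -1.46 for Sost, -0.75 for Per3, -0.35 for Podxl, -0.38 for Epas1, -1.11 for Lfng, -1.22 for Acad11, -1.08 for Arrdc3 and -1.15 for Capn1. Genes lower at 6 weeks had 1.20 for Grwd1, 0.72 for Hspa1a, 0.52 for Hspa8, 0.63 for Hsf1, 1.05 for Esm1, 0.22 for Rpl4, 0.82 for Asns, 1.04 for Clu and 0.89 for Stip1. The 20-week BTBRLean group had 2 plates, both with Xist under 5.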

How the results depend on the processing

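The 8 heat shock genes with plates apart were 8 to 10 under every scaling, pseudocount, filter, choice of cells and plate left out. Where only the pseudocount, filter or plates changed, the count could not fall below 8, since genes apart over all plates stay apart there. It was 13 on plates of few and 10 on plates of many genes per cell, and 10 within both sets, where fewer plates had to be apart. Of all genes compared, 2353 of 9705, 3396 of 9889 and 935 of 9872 were lower without overlap in these settings. The list's median was -0.57 to -0.50 under every scaling, pseudocount, filter, choice of cells and plate left out, -0.59 on plates of few genes per cell, -0.51 within both sets and -0.21 on plates of many genes per cell, where the cause was not tested. The counts of genes called moved more. A pseudocount of 5 left 17 higher and 3 lower, a filter of 1 gave 119 and 65, and no filter 126 and 74, because more genes were compared. Leaving out 1 plate gave 85 to 211 and 41 to 81. On plates of few genes per cell 237 and 236 genes were called and on plates of many 482 and 336, where fewer plates had to be apart. Within both sets it was 75 and 45. Genes with plates apart were 893 higher and 604 lower without a filter, 620 to 1139 and 482 to 777 without 1 plate, 2277 and 2353 on plates of few, 3528 and 3396 on plates of many genes per cell, and 897 and 935 within both sets. TMM scaling called 51 higher and 33 lower, and DESeq2 size factors 56 and 31. For pooled counts, overlap was still read from the plates. The differences of the 118 genes examined kept their direction under every scaling, pseudocount and filter. The direction changed for 1 gene in pooled counts, 5 in means over cells, 2 without lymphatic-gated cells, 1 to 4 when 1 plate was left out, 7 on plates of few and 8 on plates of many genes per cell, and 3 within both sets. No call reversed. No paired analysis was possible because the labels number cells, not animals. The plates held at least 40645501 counts each, and the comparison is limited by the number of plates and by mice that the labels do not name.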
